A study of Mus musculus with 30 samples.

Results

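The comparison is between 72 and 48 h in adherent 4T1 cells that had received small extracellular vesicles (sEVs) from neutrophils exposed to 27-hydroxycholesterol (27HC). It holds 10 of the 30 labelled RNA-seq samples, 5 libraries at 72 h and 5 at 48 h, chosen by vesicle, attachment and time as the labels give them, and all 13008 genes that passed a filter on low counts, of 39253 in the table. 4T1 is a mouse mammary carcinoma line, grown here in 2D in medium with vesicle-depleted serum. The neutrophils were primary Ly6G+ cells of wild-type female BALB/c mice, kept for 48 h in 10 µM 27HC or in DMSO, the vehicle. Cells under 27HC-sEVs lost adherence and were collected as 2 fractions, adherent and non-adherent. The adherent fraction at 72 and 48 h is described here. Time changes were also set against those of non-adherent 27HC-sEV cells (4 libraries at 72 h and 5 at 48 h; 1 more at 72 h is labelled as removed by the authors as an outlier) and of DMSO-sEV cells (5 libraries at each time). No group went without vesicles, so time under vesicles and time in culture cannot be told apart within this fraction. The labels do not say whether replicates were separate cultures or vesicle batches, so each p-value covers no more than the spread of the libraries at hand, which may be technical.

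27HC is a product of cholesterol metabolism that acts on nuclear receptors of the tumour cell and on the sterol sensors of the endoplasmic reticulum. Interferon-stimulated genes form an antiviral programme switched on through IRF and related factors, sterol synthesis genes are switched on by SREBP2 when membrane sterol is short, and the mitotic genes are transcribed as cells approach division. Neutrophil-attracting chemokines and colony-stimulating factors are among the best known secreted products of 4T1 tumours, and loss of keratins with gain of vimentin is the usual description of the transition from epithelial to mesenchymal state, named in the study's title.

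Between 72 and 48 h, 856 genes rose (6.58% of those tested) and 851 fell (6.54%) in edgeR's quasi-likelihood test at a Benjamini-Hochberg adjusted p under 0.05. Most changes were small: 74 genes rose and 39 fell by at least 2-fold, and the quartiles of all genes were -0.10 and 0.12 on the log2 scale, with a median of 0.00. Without regard to the test, all 5 libraries at 72 h lay above all 5 at 48 h for 699 genes (5.37%), and below them for 893 (6.87%). The first principal component of the 10 libraries, with 25.1% of their variance, ran from -18.2 to -11.9 at 72 h and from 11.6 to 19.4 at 48 h, while the second, with 16.5%, set both libraries numbered 1 (24.0 at 72 h and 19.4 at 48 h) apart from the other 8. Total estimated counts averaged 23.7 M ± 2.90 at 72 h and 23.3 M ± 2.25 at 48 h (SD, n = 5 each), with a range of 19.3 to 28.5 M over the 10 libraries (exact permutation test, two-sided, p = 0.770). All 11 markers listed for 4T1 cells (Krt8, Krt18, Epcam, Cdh1 and others) were above 1 CPM (counts scaled to 1 M), a floor too low to tell whether identity changed. They summed to 3303 to 3697 CPM at 72 h and 3681 to 4289 CPM at 48 h. Of the 11, 6 were called lower at 72 h and none higher. Spp1, which is part of the sum, averaged 738 CPM at 72 h and 524 CPM at 48 h without passing the test. In bulk RNA, fewer cells of a type and less RNA per cell cannot be told apart.

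**Figure D1:**
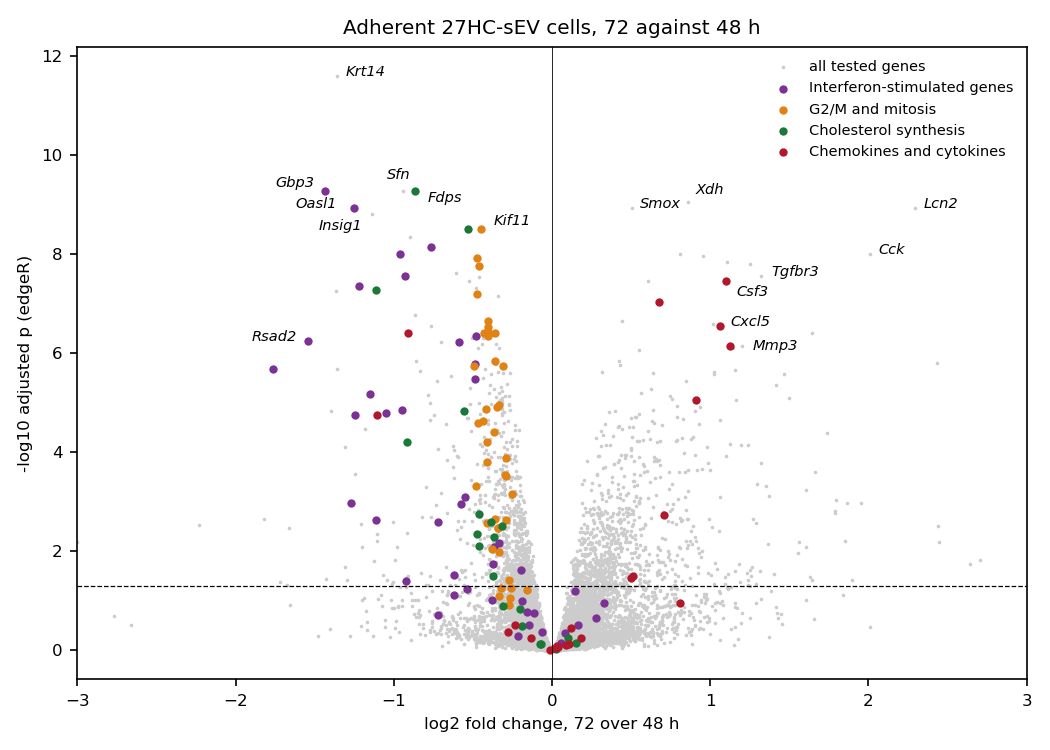
Each point is 1 of the 13008 genes, with the log2 fold change of 72 over 48 h on the x axis and -log10 of the edgeR adjusted p on the y axis; the dashed line marks 0.05, and the axis ends at 3, with 4 genes beyond it. Most coloured members of the interferon-stimulated, G2/M and cholesterol synthesis lists lie on the left (lower at 72 h), while chemokine and cytokine genes lie on both sides.

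With at least 3 for the mean log2 CPM, the largest increases were Lcn2, Tgfbr3, Mmp3, Gpnmb, Stc1, Csf3, Cxcl5, Serpine2, Adamts7, Mmp13, Dio2 and Lrp1, with log2 fold changes of 72 over 48 h (log2 changes below) between 0.92 and 2.30. Secreted proteins, proteases among them, are 8 of these 12. Lcn2 (Entrez 16819), which encodes the iron-siderophore carrier lipocalin 2, had 62.9, 61.9, 64.0, 58.2 and 54.9 CPM at 72 h, against 14.5, 13.6, 11.8, 13.5 and 8.24 CPM at 48 h, replicates 1 to 5 in order. All 5 libraries at 72 h were above every library at 48 h, with a log2 change of 2.30 (SE 0.18, edgeR adjusted p = 1.15e-09). Tgfbr3 (Entrez 21814), the co-receptor betaglycan that presents TGF-beta ligands, had 21.6, 16.2, 17.1, 17.7 and 16.3 CPM at 72 h, against 8.12, 6.11, 7.44, 7.13 and 6.77 CPM at 48 h. It was higher in all 5 libraries at 72 h, with a log2 change of 1.32 (SE 0.13, edgeR adjusted p = 2.77e-08). Stc1, a secreted glycoprotein of calcium handling, averaged 32.7 ± 3.75 CPM at 72 h and 15.2 ± 2.43 CPM at 48 h (SD, n = 5 each), and Dio2, which activates thyroid hormone, 28.9 ± 2.27 CPM at 72 h and 14.9 ± 2.04 CPM at 48 h. Lrp1, a scavenger receptor that takes up proteases and their inhibitors, rose by 0.92 (SE 0.16) on the log2 scale. Adamts7, a secreted metalloprotease, averaged 18.5 ± 2.26 CPM at 72 h and 9.11 ± 0.185 CPM at 48 h.

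The largest decreases were Gbp3, Krt14, Oasl1, Insig1, Idi1, Ddx60, Gbp2, Sfn, Oasl2, Cyp51, Ccl5 and Apol9b, between -1.43 and -0.90. Krt14 (Entrez 16664), the keratin of basal epithelial cells, had the smallest p of all genes, with 29.0, 27.6, 24.0, 24.9 and 25.0 CPM at 72 h, against 75.7, 63.2, 58.2, 64.1 and 73.3 CPM at 48 h. The 2 times did not overlap, with a log2 change of -1.36 (SE 0.08, edgeR adjusted p = 2.49e-12). Sfn (Entrez 55948), the epithelial 14-3-3 protein stratifin, had 22.3, 22.6, 22.4, 18.4 and 18.5 CPM at 72 h, against 40.2, 42.6, 36.3, 39.2 and 42.0 CPM at 48 h. It was lower in every library at 72 h, with a log2 change of -0.94 (SE 0.07, edgeR adjusted p = 5.41e-10).

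**Figure D2:**
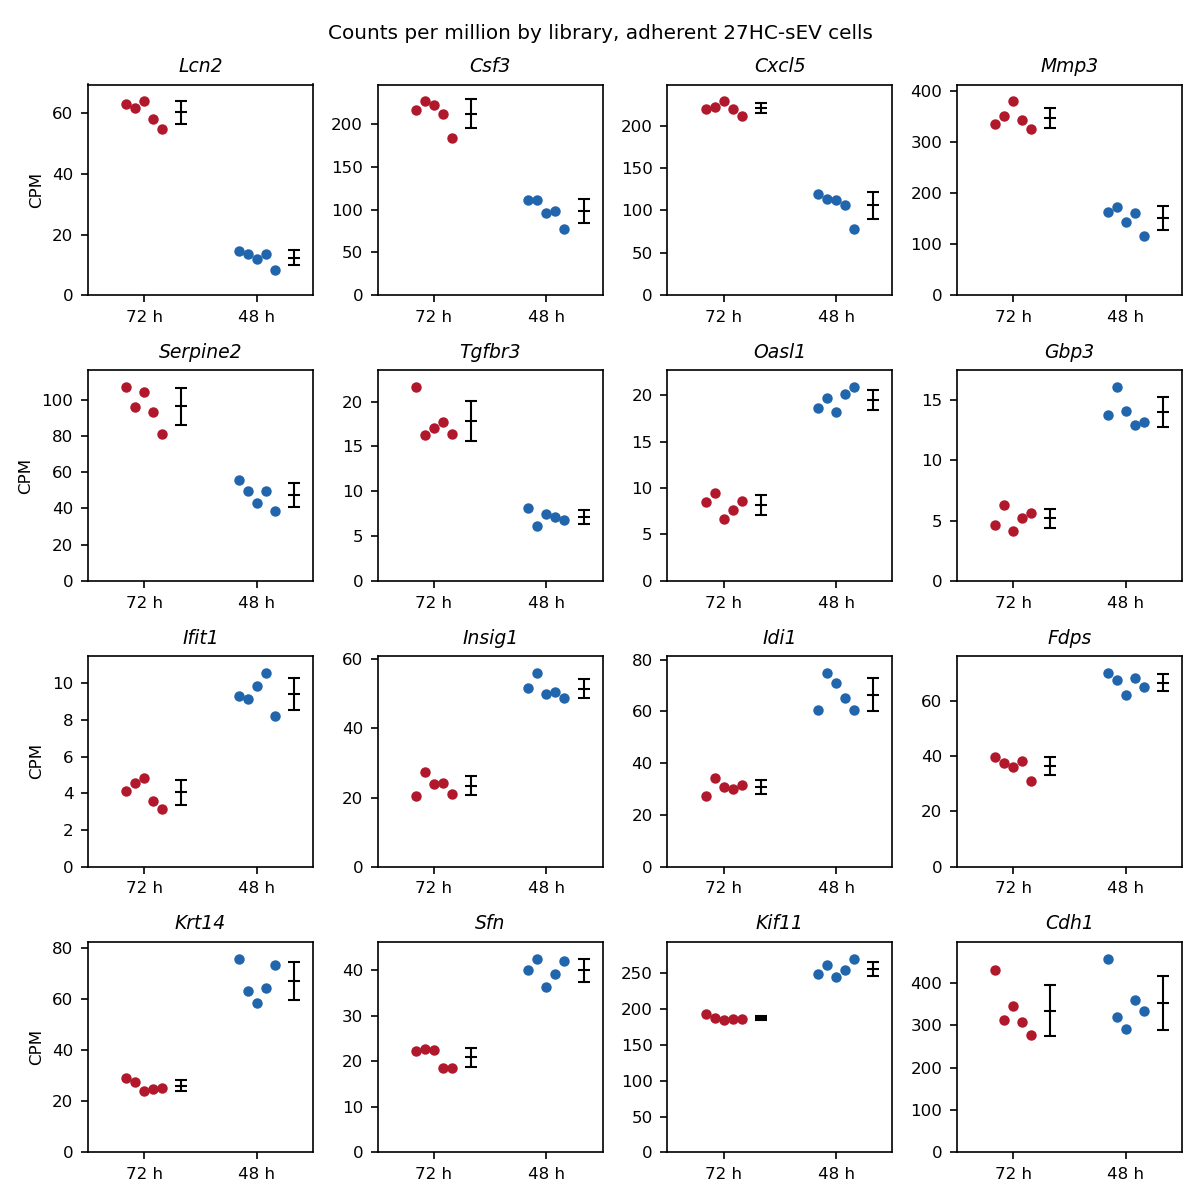
CPM (y axis, from 0) in each of the 5 libraries at 72 h (left, red) and 48 h (right, blue) for 16 genes, with bars for the mean ± SD. In every panel except Cdh1 the groups do not overlap; the Cdh1 values at 72 h (277 to 432 CPM) overlap those at 48 h (292 to 458 CPM).

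Interferon-stimulated genes fell as a group. Of 43 tested, 27 were lower at 72 h, beside 6.54% of all tested genes, and none was higher. The list median was -0.55, against 0.00 for all genes. Where 6.87% of all tested genes had all 5 libraries at 72 h below all at 48 h, 22 of the 43 did. Many promoters of such genes carry the interferon-stimulated response element (ISRE), bound by IRF factors and by the complex that type I interferon activates. Promoters of 3 genes that fell are printed below from RefSeq (GRCm38.p6, an earlier build than the GRCm39 named in the submitters' notes), each from 250 bases before to 50 after the gene's start, with the letters GAAA NN GAAA of either strand in capitals, where N is any base and the run has no gap. They are shown because all 3 genes fell and have more than 1 match; the matches in Isg15 and in Gbp3 overlap each other.
Ifit1 (chr19:34640639-34640938, plus strand): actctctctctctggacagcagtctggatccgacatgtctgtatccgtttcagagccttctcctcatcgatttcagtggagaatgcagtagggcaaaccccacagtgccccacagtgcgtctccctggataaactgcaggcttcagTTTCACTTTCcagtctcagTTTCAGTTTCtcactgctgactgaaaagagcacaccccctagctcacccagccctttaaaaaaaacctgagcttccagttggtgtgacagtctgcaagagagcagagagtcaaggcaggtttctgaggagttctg
Isg15 (chr4:156200769-156201068, minus strand): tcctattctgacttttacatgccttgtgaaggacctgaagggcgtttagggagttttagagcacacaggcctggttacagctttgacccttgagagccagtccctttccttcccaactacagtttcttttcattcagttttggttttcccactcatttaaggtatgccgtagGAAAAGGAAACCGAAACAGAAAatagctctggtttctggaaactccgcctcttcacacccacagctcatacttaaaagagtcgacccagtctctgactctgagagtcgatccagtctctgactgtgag
Gbp3 (chr3:142559794-142560093, plus strand): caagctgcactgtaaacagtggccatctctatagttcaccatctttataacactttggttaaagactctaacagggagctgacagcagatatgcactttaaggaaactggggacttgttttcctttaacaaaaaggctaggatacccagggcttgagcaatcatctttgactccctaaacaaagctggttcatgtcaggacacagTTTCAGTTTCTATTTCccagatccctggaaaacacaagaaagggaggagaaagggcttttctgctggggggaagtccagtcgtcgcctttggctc
Those letters stood in the window of 16 of the 33 list genes with a promoter in the table (48.48%), among them 11 of the 22 that fell and have one, and of 368 of 10203 tested genes in all (3.607%), counting a gene once if any of its listed windows held them. A match is a description of the letters, not a bound site.

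Among the effectors, Ifit1 (Entrez 15957), which binds uncapped viral RNA, had 4.10, 4.54, 4.83, 3.60 and 3.14 CPM at 72 h, against 9.32, 9.11, 9.85, 10.6 and 8.20 CPM at 48 h. Every library at 72 h was below every library at 48 h, with a log2 change of -1.22 (SE 0.12, edgeR adjusted p = 4.35e-08). Isg15 (Entrez 100038882), a ubiquitin-like modifier, had 4.44, 6.31, 5.36, 5.05 and 4.42 CPM at 72 h, against 9.65, 15.01, 12.6, 9.35 and 10.4 CPM at 48 h. Its groups did not overlap either, with a log2 change of -1.15 (SE 0.16, edgeR adjusted p = 6.53e-06). Oasl1 (Entrez 231655), an oligoadenylate synthetase-like protein, had 8.51, 9.51, 6.70, 7.64 and 8.60 CPM at 72 h, against 18.6, 19.6, 18.2, 20.2 and 20.9 CPM at 48 h. That is a log2 change of -1.25 (SE 0.10, edgeR adjusted p = 1.15e-09), and its relative Oasl2 changed by -0.93 (SE 0.09). Rsad2, the antiviral enzyme viperin, averaged 0.787 ± 0.133 CPM at 72 h and 2.31 ± 0.248 CPM at 48 h (SD, n = 5 each), a log2 change of -1.54 (SE 0.18, edgeR adjusted p = 5.65e-07). Of the guanylate-binding GTPases, Gbp3 (Entrez 55932) had 4.65, 6.26, 4.16, 5.26 and 5.60 CPM at 72 h, against 13.8, 16.1, 14.1, 12.9 and 13.1 CPM at 48 h. The fall is a log2 change of -1.43 (SE 0.11, edgeR adjusted p = 5.41e-10), and Gbp2 had 18.6 ± 2.16 CPM at 72 h and 36.3 ± 3.33 CPM at 48 h. Reads of Gbp2 may be split with its near-identical copy Gbp2b, and those of Apol9b (log2 change -0.90) with Apol9a, so their values are uncertain.

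Sensors and a transcription factor of the pathway were lower as well. Ifih1 (Entrez 71586), which encodes the RNA sensor MDA5, had 14.8, 17.9, 14.8, 14.8 and 16.7 CPM at 72 h, against 27.6, 28.0, 27.5, 25.8 and 25.5 CPM at 48 h. All 72 h libraries were lower, with a log2 change of -0.77 (SE 0.07, edgeR adjusted p = 7.14e-09). Ddx60, a helicase that acts with these sensors, averaged 7.06 ± 1.39 CPM at 72 h and 14.6 ± 2.22 CPM at 48 h (SD, n = 5 each). The transcription factor Irf7 changed by -0.72 (edgeR adjusted p = 0.00251). Isg15, Rsad2 and Irf7 were named after their values were seen. Genes of MHC class I and antigen processing, which interferon also controls, did not move together, with a median of 0.08. Of 22 tested 3 rose and 3 fell, beside 6.58% and 6.54% of all tested genes. Psmb10, an immunoproteasome subunit, averaged 18.8 ± 2.00 CPM at 72 h and 28.4 ± 3.49 CPM at 48 h (log2 change -0.59, edgeR adjusted p = 0.000127), and Nlrc5, the transactivator of MHC class I genes, 36.7 ± 3.10 CPM at 72 h and 24.9 ± 1.69 CPM at 48 h (log2 change 0.56, edgeR adjusted p = 0.000293). Those counts rest on single libraries. The rise was called in 1 gene without 48 h replicate 3, 48 h replicate 5 or 72 h replicate 3, and the fall in 1 gene without 48 h replicate 1, 48 h replicate 2 or 72 h replicate 4.

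**Figure D3:**
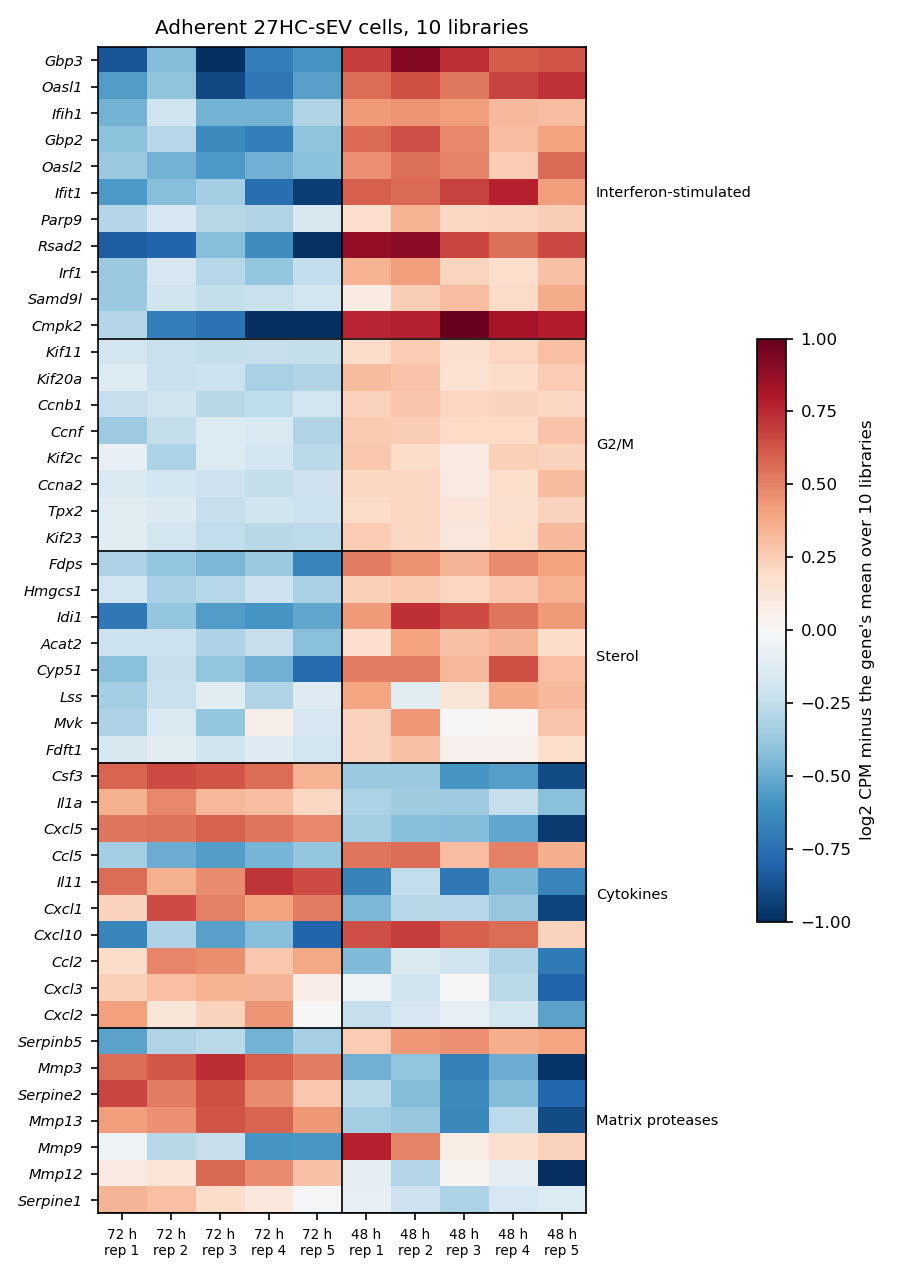
Log2 CPM of called genes of 5 lists (rows, those with the smallest p in each list) in the 5 libraries at 72 h (left) and 48 h (right), minus the gene's mean over the 10 libraries; the colour scale ends at -1 and 1. The interferon-stimulated, G2/M and sterol blocks are lower at 72 h in nearly every library, the cytokine and protease blocks are higher, with Ccl5, Cxcl10, Serpinb5 and Mmp9 the other way, and 48 h replicate 5 has the lowest values of many genes that rose.

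Genes of mitosis fell together. Of 41 tested G2/M genes 34 were lower at 72 h and none higher, with a median of -0.36. The 72 h libraries lay below all 48 h libraries for 37 of them. Of all tested genes 6.54% were called lower and 6.87% lay below without overlap. Of 44 G1/S and replication genes 21 fell and none rose, with a median of -0.21. Kif11 (Entrez 16551), a motor protein that separates the spindle poles, had 192, 187, 185, 186 and 186 CPM at 72 h, against 249, 262, 244, 254 and 270.3 CPM at 48 h. The groups were tight and apart, with a log2 change of -0.45 (SE 0.04, edgeR adjusted p = 3.08e-09). Mki67 (Entrez 17345), the proliferation marker Ki-67, had 426, 341, 371, 359 and 369.7 CPM at 72 h, against 495, 428, 486, 516 and 553 CPM at 48 h. The 72 h values ended just below the lowest 48 h value, with a log2 change of -0.41 (SE 0.09, edgeR adjusted p = 0.00262). Kif20a, a motor of late mitosis, averaged 104 ± 5.45 CPM at 72 h and 145 ± 7.04 CPM at 48 h (SD, n = 5 each), and Ccnb1, the mitotic cyclin B1, 132 ± 3.33 CPM at 72 h and 182 ± 3.45 CPM at 48 h. For replication, Rrm2 (Entrez 20135), a subunit of ribonucleotide reductase, had 117, 118, 113, 114 and 111 CPM at 72 h, against 146, 146, 141, 145 and 145 CPM at 48 h. It was lower at 72 h in all 5 libraries, with a log2 change of -0.34 (SE 0.04, edgeR adjusted p = 8e-07), and its partner Rrm1 changed by -0.36 (SE 0.04).

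Many mitotic promoters carry a CHR element (cell cycle genes homology region), bound by the complexes that silence them in resting cells and drive them before division. The letters TTTGAA, on either strand, are in capitals in the promoters of 2 genes described above, from the same RefSeq windows.
Kif11 (chr19:37376132-37376431, plus strand): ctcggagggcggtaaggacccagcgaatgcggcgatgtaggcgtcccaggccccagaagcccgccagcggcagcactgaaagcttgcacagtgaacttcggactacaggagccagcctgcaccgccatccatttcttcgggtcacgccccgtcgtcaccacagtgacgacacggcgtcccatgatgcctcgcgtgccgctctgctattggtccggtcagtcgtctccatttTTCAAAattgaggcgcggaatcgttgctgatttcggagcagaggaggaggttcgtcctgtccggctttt
Mki67 (chr7:135716330-135716629, minus strand): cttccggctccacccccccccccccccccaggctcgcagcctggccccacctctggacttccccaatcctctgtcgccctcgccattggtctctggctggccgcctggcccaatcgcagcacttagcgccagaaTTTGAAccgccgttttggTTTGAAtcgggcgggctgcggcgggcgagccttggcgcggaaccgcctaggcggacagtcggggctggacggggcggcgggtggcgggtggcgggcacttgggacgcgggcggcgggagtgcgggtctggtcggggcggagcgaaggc
They stood in 24 of the 35 G2/M promoters in the table, 20 of them among the 28 whose genes fell, and in 14.496% of the promoters of all 10203 tested genes with one. CCAAT letters, the other common element of these promoters, stood in 26 of the 35 and in 43.468% of all. Of the regulators above these genes, Rbl1, the pocket protein p107, changed by -0.22 (SE 0.06). Ccnd1 (cyclin D1) averaged 892 ± 22.8 CPM at 72 h and 873 ± 74.7 CPM at 48 h (SD, n = 5 each), Cdkn1a (the CDK inhibitor p21) 19.4 ± 0.976 CPM at 72 h and 20.3 ± 1.02 CPM at 48 h and Myc 275 ± 7.40 CPM at 72 h and 278 ± 14.3 CPM at 48 h, and these 3 did not pass the test (edgeR adjusted p = 0.832, 0.637 and 0.901).

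Genes of cholesterol synthesis fell. Of 20 tested 12 were lower at 72 h and none higher, with a median of -0.37, where 6.54% of all tested genes fell. Hmgcs1 (Entrez 208715), which starts the mevalonate pathway, had 48.9, 44.5, 45.8, 48.4 and 44.5 CPM at 72 h, against 65.9, 66.8, 64.9, 67.3 and 70.9 CPM at 48 h. Every 72 h library was lower, with a log2 change of -0.53 (SE 0.05, edgeR adjusted p = 3.08e-09). The letters TCAC N CCAC of a sterol regulatory element, on either strand, stood in the promoter of 1 of 15 list genes, Hmgcs1, and in 1.343% of all 10203. Idi1 (Entrez 319554), the isomerase of the isoprene units, had 27.4, 34.4, 30.6, 29.9 and 31.4 CPM at 72 h, against 60.6, 74.8, 70.8, 65.3 and 60.4 CPM at 48 h. The 72 h libraries were all far below the 48 h libraries, with a log2 change of -1.11 (SE 0.11, edgeR adjusted p = 5.29e-08). Fdps (Entrez 110196), farnesyl diphosphate synthase, had 39.8, 37.6, 36.0, 38.0 and 31.1 CPM at 72 h, against 70.0, 67.3, 62.2, 68.2 and 65.0 CPM at 48 h. That is a log2 change of -0.87 (SE 0.07, edgeR adjusted p = 5.41e-10). Cyp51, the lanosterol demethylase, averaged 21.9 ± 2.86 CPM at 72 h and 41.2 ± 4.00 CPM at 48 h (SD, n = 5 each), and Acat2, the thiolase before Hmgcs1, 31.0 ± 1.82 CPM at 72 h and 45.6 ± 3.15 CPM at 48 h.

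The sterol sensors and the transporters did not move as one group. Of 19 genes 4 were lower and 4 higher, beside 6.54% and 6.58% of all tested genes. Insig1 (Entrez 231070), the protein that holds SREBP in the endoplasmic reticulum and is itself an SREBP target, had 20.6, 27.4, 24.0, 24.3 and 21.0 CPM at 72 h, against 51.7, 56.0, 50.1, 50.5 and 48.8 CPM at 48 h. The groups did not overlap, with a log2 change of -1.13 (SE 0.09, edgeR adjusted p = 1.51e-09). Stard4, a sterol carrier, changed by -0.61 (SE 0.06) and the transcription factor Srebf2 by -0.40 (SE 0.09), and for Srebf2 the libraries of the 2 times overlapped. The exporters Abca1 and Abcg1, targets of the oxysterol-sensing liver X receptors, were higher but low. Abca1 (Entrez 11303) had 1.38, 0.556, 0.939, 0.768 and 0.546 CPM at 72 h, against 0.454, 0.369, 0.249, 0.524 and 0.358 CPM at 48 h, a log2 change of 1.11 (SE 0.34, edgeR adjusted p = 0.029). Its call was lost without 48 h replicate 2, 3 or 5 and without 72 h replicate 1 or 3 (adjusted p 0.0555 to 0.132) and in limma-voom (adjusted p = 0.0537). Abcg1 averaged 7.09 ± 1.35 CPM at 72 h and 4.32 ± 1.07 CPM at 48 h (SD, n = 5 each, log2 change 0.72, edgeR adjusted p = 0.00566; adjusted p = 0.0639 in limma-trend on the deposited log2 CPM). The count of 4 higher was 2 without 48 h replicate 2 or 3 and without 72 h replicate 1 or 3. Of 17 genes of fatty acid synthesis, also SREBP targets, 7 fell and none rose, with a median of -0.29. The desaturase Scd2 averaged 395 ± 72.6 CPM at 72 h and 682 ± 94.5 CPM at 48 h, Fads2 43.3 ± 5.59 CPM at 72 h and 71.8 ± 8.01 CPM at 48 h and Scd1 38.8 ± 5.10 CPM at 72 h and 52.0 ± 6.01 CPM at 48 h.

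**Figure D4:**
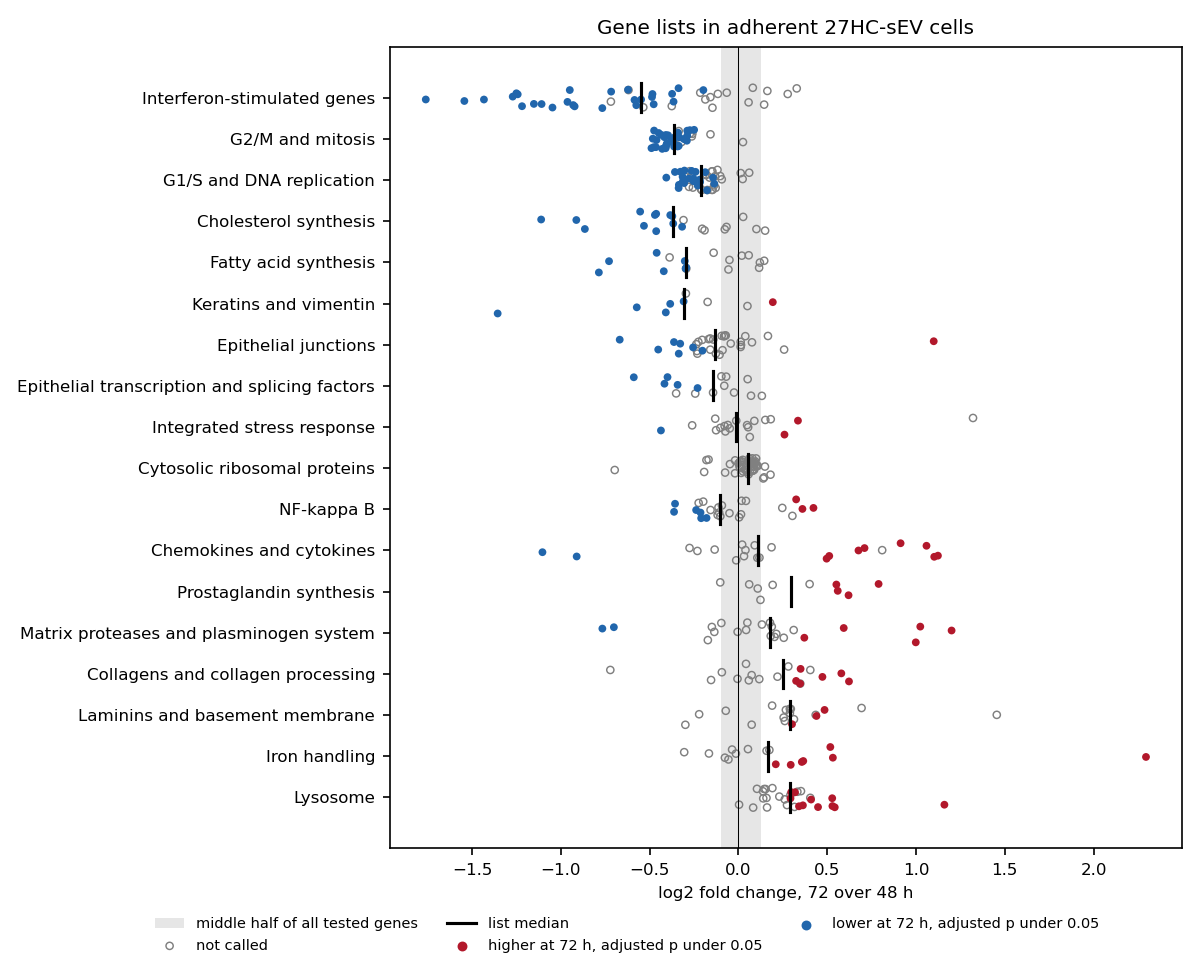
Log2 fold change of 72 over 48 h (x axis) for each tested member of 18 gene lists (rows); filled points passed edgeR's test, red higher and blue lower at 72 h, open grey points did not, the black bar is the list median and the grey band the quartiles of all genes (-0.10 to 0.12). The interferon-stimulated list (median -0.55), the G2/M list (-0.36) and the cholesterol synthesis list (-0.37) have medians left of the band, and the lysosome (0.29), laminin (0.29) and prostaglandin (0.30) lists right of it.

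Secreted inflammatory mediators went both ways. Of 22 tested chemokine and cytokine genes 8 rose and 2 fell, beside 6.58% and 6.54% of all tested genes. Their median was 0.11. The promoter of Cxcl1, a neutrophil chemokine that rose, is shown with the letters GGG NN TTTCC of the NF-kappa B site, without a gap, on either strand, in capitals.
Cxcl1 (chr5:90890995-90891294, plus strand): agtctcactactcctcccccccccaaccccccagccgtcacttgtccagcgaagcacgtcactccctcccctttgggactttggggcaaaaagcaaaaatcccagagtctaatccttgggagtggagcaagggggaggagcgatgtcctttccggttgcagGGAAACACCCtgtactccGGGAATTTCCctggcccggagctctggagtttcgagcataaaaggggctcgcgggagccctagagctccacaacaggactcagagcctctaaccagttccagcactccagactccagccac
Those letters stood in 5 of the 14 promoters of the list and in 2.137% of all 10203. Csf3 (Entrez 12985), the granulocyte colony-stimulating factor, had 216, 227, 223, 212 and 184 CPM at 72 h, against 111, 112, 95.5, 98.4 and 77.4 CPM at 48 h. It was higher in all 72 h libraries, with a log2 change of 1.103 (SE 0.11, edgeR adjusted p = 3.48e-08). Cxcl5 (Entrez 20311), a neutrophil chemokine, had 219.8, 222, 229, 220.1 and 212 CPM at 72 h, against 119, 113, 113, 106 and 78.1 CPM at 48 h. The 72 h libraries were nearly level and all higher, and 48 h replicate 5 was the lowest, with a log2 change of 1.06 (SE 0.12, edgeR adjusted p = 2.84e-07). Cxcl1 averaged 251.9 ± 26.7 CPM at 72 h and 134 ± 21.9 CPM at 48 h (SD, n = 5 each, log2 change 0.91, edgeR adjusted p = 8.88e-06), the monocyte chemokine Ccl2 25.6 ± 2.29 CPM at 72 h and 15.7 ± 2.34 CPM at 48 h and the alarmin Il1a 121 ± 8.15 CPM at 72 h and 76.0 ± 3.85 CPM at 48 h. Il11, a cytokine of the IL-6 family named after its values were seen, averaged 7.25 ± 0.707 CPM at 72 h and 3.34 ± 0.486 CPM at 48 h. The 2 that fell, Cxcl10 and Ccl5, are T cell chemokines that interferon induces. Cxcl10 averaged 3.82 ± 0.512 CPM at 72 h and 8.23 ± 0.975 CPM at 48 h and Ccl5 5.80 ± 0.347 CPM at 72 h and 10.9 ± 0.848 CPM at 48 h (edgeR adjusted p = 1.79e-05 and 3.93e-07).

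The NF-kappa B genes themselves changed in both directions, with a median of -0.11. Of 24 tested 3 were higher and 6 lower, beside 6.58% and 6.54% of all tested genes. Nfkbiz, a nuclear cofactor for a subset of NF-kappa B targets that includes Lcn2, averaged 65.2 ± 2.74 CPM at 72 h and 48.7 ± 2.48 CPM at 48 h (SD, n = 5 each, log2 change 0.42, edgeR adjusted p = 2.99e-05). The inhibitor Nfkbie changed by -0.36 (SE 0.05) and the ubiquitin ligase Birc3 by -0.24 (SE 0.05). The 6 lower genes were 3 without 72 h replicate 4. Prostaglandin synthesis genes leaned upward: 4 of 10 rose, none fell, and the median was 0.30. Ptgs2 (Entrez 19225), the inducible cyclooxygenase COX-2, had 2006, 1661, 1841, 1651 and 1418 CPM at 72 h, against 1319, 1039.5, 1004, 1239.7 and 978 CPM at 48 h. The groups did not overlap, with a log2 change of 0.62 (SE 0.10, edgeR adjusted p = 5.49e-05), and the downstream synthase Ptges had 23.9 ± 1.17 CPM at 72 h and 13.8 ± 1.77 CPM at 48 h. Since vesicles came from neutrophils, their markers were read as well. Of 22 neutrophil markers listed, 6 were at 0 in all 10 libraries (Elane, Mpo, Ly6g, Mmp8, Csf3r and Fpr1), 17 stayed under 1 CPM, and their sum was 96.8 to 117 CPM at 72 h and 66.3 to 96.1 CPM at 48 h, most of it Lcn2 and Mmp9. S100a8 (Entrez 20201), a calcium-binding alarmin also made by epithelium, had 1.21, 0.974, 0.939, 1.13 and 1.41 CPM at 72 h, against 0.247, 0.263, 0.0831, 0.322 and 0.119 CPM at 48 h, a log2 change of 2.44 (SE 0.30, edgeR adjusted p = 1.56e-06). All its 48 h libraries were far under 1 CPM, with few counts, so the size of this change is uncertain. Macrophage markers summed to 11.8 to 14.8 CPM at 72 h and 6.77 to 10.5 CPM at 48 h, with 5 of 12 at 0, and 9 of 10 lymphocyte markers were at 0. The part of other cell types in these results was not tested.

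Matrix proteases and their inhibitors changed by gene. Of 22 tested, 5 rose and 2 fell, with a median of 0.18. The stromelysin Mmp3 (Entrez 17392) had 336, 350.0, 379, 343 and 325 CPM at 72 h, against 163, 173, 143, 161 and 115 CPM at 48 h. All 72 h libraries were higher, with a log2 change of 1.20 (SE 0.14, edgeR adjusted p = 7.03e-07). The collagenase Mmp13 (Entrez 17386) had 41.8, 42.9, 48.3, 46.7 and 42.1 CPM at 72 h, against 24.5, 23.9, 19.9, 26.0 and 16.8 CPM at 48 h, a log2 change of 0.999 (SE 0.18, edgeR adjusted p = 0.000231). Serpine2 (Entrez 20720), the thrombin and plasminogen activator inhibitor nexin-1, had 107, 96.0, 105, 93.4 and 81.0 CPM at 72 h, against 55.7, 49.8, 43.1, 49.7 and 38.9 CPM at 48 h. The groups stood apart, with a log2 change of 1.02 (SE 0.13, edgeR adjusted p = 2.63e-06). The gelatinase Mmp9 (Entrez 17395) went the other way, with 39.2, 33.4, 34.6, 26.9 and 27.0 CPM at 72 h, against 69.6, 57.2, 42.8, 45.3 and 47.7 CPM at 48 h. The 48 h libraries were spread more widely, and all 5 were above the 72 h libraries, with a log2 change of -0.70 (SE 0.14, edgeR adjusted p = 0.000678). Serpinb5, the epithelial serpin maspin, averaged 16.9 ± 1.36 CPM at 72 h and 28.8 ± 1.54 CPM at 48 h (SD, n = 5 each, log2 change -0.77, edgeR adjusted p = 2.84e-07). The 5 risers were 3 without 48 h replicate 5 or 72 h replicate 3. Structural matrix genes leaned upward: 3 of 18 laminin and basement membrane genes rose (median 0.29) and 6 of 18 collagen genes (median 0.25). None fell in either list, and 6.58% of all tested genes rose. The laminin count was 7 without 48 h replicate 1. Lama5 averaged 285 ± 30.2 CPM at 72 h and 210.4 ± 22.5 CPM at 48 h, Lamb2 42.7 ± 2.56 CPM at 72 h and 30.5 ± 2.30 CPM at 48 h and the fibrillar collagen Col5a1 28.9 ± 2.52 CPM at 72 h and 19.4 ± 3.07 CPM at 48 h. Fn1, fibronectin, averaged 2625 ± 622 CPM at 72 h and 2142 ± 416 CPM at 48 h and did not pass (edgeR adjusted p = 0.257).

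Keratins were lower and vimentin slightly higher. Of 9 tested genes of the list 5 fell and Vim rose, with a median of -0.31. Vim (Entrez 22352), the mesenchymal intermediate filament, had 1876, 1799, 1756, 1793 and 1842 CPM at 72 h, against 1659, 1599.8, 1523, 1545 and 1603 CPM at 48 h. The difference was small but without overlap, with a log2 change of 0.19 (SE 0.04, edgeR adjusted p = 0.00184). Krt7 averaged 515 ± 13.5 CPM at 72 h and 685 ± 21.4 CPM at 48 h (SD, n = 5 each), Krt8 591 ± 20.6 CPM at 72 h and 772 ± 52.5 CPM at 48 h and Krt18 779.8 ± 25.1 CPM at 72 h and 966 ± 47.7 CPM at 48 h. Of 32 junction genes 7 fell and 1 rose, with a median of -0.13, beside 6.54% and 6.58% of all tested genes. The desmosomal plakophilin Pkp1 averaged 10.1 ± 0.338 CPM at 72 h and 16.1 ± 1.65 CPM at 48 h (log2 change -0.67, edgeR adjusted p = 2.74e-05), and the riser, the tight junction protein Cldn1, 2.80 ± 0.386 CPM at 72 h and 1.31 ± 0.178 CPM at 48 h (edgeR adjusted p = 0.00012). Cdh1 (Entrez 12550), E-cadherin, had 432, 312, 346, 308 and 277 CPM at 72 h, against 458, 321, 292, 360.1 and 335 CPM at 48 h. The values overlapped, with a log2 change of -0.08 (SE 0.12, edgeR adjusted p = 0.775), and Epcam, at 318 ± 15.8 CPM at 72 h and 375 ± 45.1 CPM at 48 h, did not pass either (adjusted p = 0.309; 0.0369 with only the 2 groups in the fit).

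Of 15 epithelial transcription and splicing factors 5 fell and none rose (median -0.14). The splicing factor Esrp1 averaged 81.0 ± 3.70 CPM at 72 h and 108 ± 8.19 CPM at 48 h (SD, n = 5 each) and Grhl2, a guardian of epithelial identity, 40.8 ± 2.78 CPM at 72 h and 51.8 ± 3.78 CPM at 48 h. The count was 3 without 48 h replicate 2 or 5 or 72 h replicate 2 or 5, and 2 without 72 h replicate 4. Among 17 EMT transcription factors 3 rose and 1 fell, with a median of 0.05, beside 6.58% and 6.54% of all tested genes. Zeb2 (Entrez 24136), a repressor of E-cadherin, had 62.1, 54.7, 61.5, 59.2 and 62.8 CPM at 72 h, against 44.6, 40.2, 47.0, 46.3 and 47.0 CPM at 48 h. It was higher in all 72 h libraries, with a log2 change of 0.42 (SE 0.09, edgeR adjusted p = 0.00175). Its relative Zeb1 (Entrez 21417) was near 1 CPM, with 0.758, 0.603, 0.804, 0.849 and 0.819 CPM at 72 h, against 1.28, 1.74, 1.54, 1.25 and 1.08 CPM at 48 h, a log2 change of -0.83 (SE 0.25, edgeR adjusted p = 0.0272). That call was lost without 48 h replicate 2 or 3 and without 72 h replicate 1 or 2 (adjusted p 0.0524 to 0.0746). Hmga2, a chromatin factor, averaged 440.1 ± 10.9 CPM at 72 h and 357 ± 18.9 CPM at 48 h (log2 change 0.30, edgeR adjusted p = 0.00392), and Snai1 8.99 ± 1.27 CPM at 72 h and 7.63 ± 0.884 CPM at 48 h, without passing (adjusted p = 0.151; 0.0283 with both libraries numbered 1 left out). Fgfr1, a receptor of mesenchymal cells, averaged 1.64 ± 0.292 CPM at 72 h and 0.66 ± 0.17 CPM at 48 h (log2 change 1.32, edgeR adjusted p = 0.000168). The stem cell marker Cd44 averaged 638 ± 56.1 CPM at 72 h and 575 ± 62.8 CPM at 48 h (adjusted p = 0.433).

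Lysosomal genes leaned upward as a whole: all 29 tested had a positive log2 fold change, 11 passed and the median was 0.29. Among all tested genes 6.58% rose. Gpnmb (Entrez 93695), a glycoprotein of lysosomes and melanosomes, had 109, 91.3, 93.0, 93.9 and 77.6 CPM at 72 h, against 54.1, 41.1, 37.7, 43.9 and 31.4 CPM at 48 h. The groups did not overlap, with a log2 change of 1.16 (SE 0.15, edgeR adjusted p = 2.14e-06). The protease Ctsl averaged 2899 ± 68.1 CPM at 72 h and 1990.5 ± 207 CPM at 48 h (SD, n = 5 each) and the sialidase Neu1 26.6 ± 2.14 CPM at 72 h and 18.4 ± 1.71 CPM at 48 h. The count of 11 was 5 without 48 h replicate 3 or 72 h replicate 1, 7 without 48 h replicate 4 or 72 h replicate 3, 4 without 48 h replicate 5, and 19 with only the 2 groups in the fit. Of 16 iron genes 7 rose and none fell, with a median of 0.17. Among them Fth1, the ferritin heavy chain, averaged 2058 ± 57.0 CPM at 72 h and 1607 ± 49.7 CPM at 48 h (log2 change 0.36, edgeR adjusted p = 0.000575). Of 37 genes of hypoxia and glycolysis 8 rose and none fell, with a median of 0.06. Eno2, a neuronal-type enolase, averaged 10.9 ± 1.57 CPM at 72 h and 6.12 ± 0.728 CPM at 48 h, and Vegfa, the endothelial growth factor, 63.9 ± 3.39 CPM at 72 h and 51.5 ± 0.588 CPM at 48 h.

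The integrated stress response, which cells start when amino acids run short or protein folding fails, showed no common direction. Of 19 genes of the integrated stress response 2 rose and 1 fell, with a median of -0.01, where 6.58% of all tested genes rose and 6.54% fell. Ddit3 (Entrez 13198), the transcription factor CHOP, had 38.1, 49.8, 41.1, 46.7 and 48.1 CPM at 72 h, against 43.6, 45.1, 45.7, 40.4 and 39.1 CPM at 48 h. The values overlapped, with a log2 change of 0.06 (SE 0.10, edgeR adjusted p = 0.775). Atf3 averaged 88.6 ± 4.63 CPM at 72 h and 78.1 ± 6.04 CPM at 48 h (SD, n = 5 each) and the pseudokinase Trib3 46.8 ± 1.23 CPM at 72 h and 51.2 ± 4.01 CPM at 48 h, and neither passed (adjusted p = 0.195 and 0.289; 0.041 for Atf3 with only the 2 groups in the fit). The 1 that fell was the mTORC1 inhibitor Ddit4, at 126 ± 6.31 CPM at 72 h and 170.2 ± 4.35 CPM at 48 h (log2 change -0.44, edgeR adjusted p = 4.83e-07). Of 17 genes of amino acid synthesis and one-carbon metabolism 6 fell and none rose (median -0.20), among them Asns, asparagine synthetase, at 206 ± 9.56 CPM at 72 h and 237 ± 14.95 CPM at 48 h (edgeR adjusted p = 0.0153, 0.0557 with length and GC offsets). In edgeR's test 0 of 50 cytosolic ribosomal protein genes passed (median 0.05), 1 was lower at an unadjusted p under 0.05, and DESeq2 called 1 lower. Of 23 genes of ERK feedback and EGF receptor ligands 8 rose and none fell, with a median of 0.17. Of 27 immediate early genes 11 rose and 3 fell. Fos, a subunit of AP-1, averaged 6.17 ± 0.928 CPM at 72 h and 3.32 ± 0.407 CPM at 48 h and Fosb 12.7 ± 1.73 CPM at 72 h and 7.85 ± 0.597 CPM at 48 h. The 11 were 7 without 48 h replicate 2 or 3, and the 3 were 1 without 48 h replicate 5 or 72 h replicate 1. The matricellular protein Ccn1 averaged 304 ± 39.2 CPM at 72 h and 195 ± 24.7 CPM at 48 h (log2 change 0.64, edgeR adjusted p = 0.000125), and its relative Ccn2 121 ± 14.4 CPM at 72 h and 119 ± 7.28 CPM at 48 h (adjusted p = 0.914).

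The same time step was then set against that of DMSO-sEV cells, as the difference between the 2 log2 fold changes. In adherent 27HC-sEV cells 856 genes were higher and 851 lower at 72 h, and in DMSO-sEV cells 3621 and 3097. The difference between the time changes was positive in 2068 genes (15.9%) and negative in 2789 (21.4%). Interferon-stimulated genes went opposite ways: their median time change was -0.55 in adherent 27HC-sEV cells and 0.43 in DMSO-sEV cells, and 35 of 43 had a lower change in the 27HC-sEV cells (1 had a higher). For Ifit1 the log2 time change was -1.22 in adherent 27HC-sEV cells and 1.40 in DMSO-sEV cells, a difference of -2.62 (SE 0.17, adjusted p = 2.36e-11). Oasl1 had -1.25 and 0.93 in the same order, and Cxcl10 -1.104 and 1.33.

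Laminins showed the reverse pattern, with a median of 0.29 in adherent 27HC-sEV cells and -0.94 in DMSO-sEV cells, and 16 of 18 differed upward (10 of 18 with length and GC offsets, where the median difference was 0.58 and not 1.21). The time change of Lama5 was 0.44 in adherent 27HC-sEV cells and -0.86 in DMSO-sEV cells, a difference of 1.30 (SE 0.15, adjusted p = 2.66e-07). Lrp1 had 0.92 and -0.94, and Ptprs, a receptor phosphatase with one of the smallest p values of this difference, 0.37 and -0.66. Nup210, a nuclear pore protein, did not pass in adherent 27HC-sEV cells (-0.01) and fell in DMSO-sEV cells (-1.37). Lcn2 changed by 2.30 in adherent 27HC-sEV cells and 0.13 in DMSO-sEV cells, a difference of 2.17 (SE 0.28, adjusted p = 1.09e-06). For Cdh1 the difference of 0.95 (SE 0.18, adjusted p = 0.000146) came with -0.08 in adherent 27HC-sEV cells and -1.03 in DMSO-sEV cells. Sterol genes were split: Idi1 differed by -1.40 (SE 0.15, adjusted p = 1.86e-07), while Srebf2 differed by 0.40 (SE 0.13, adjusted p = 0.0132). Of 20 cholesterol synthesis genes 8 had a lower and 3 a higher change than in DMSO-sEV cells, beside 21.4% and 15.9% of all genes. Of 17 fatty acid synthesis genes 6 had a higher change and none a lower one. Their medians were -0.29 in adherent 27HC-sEV cells and -0.47 in DMSO-sEV cells, so the list median was negative in both. In adherent 27HC-sEV cells 10 of the 17 passed in neither direction. Ddit3 had 0.06 and 1.02, a difference of -0.96 (SE 0.17, adjusted p = 8.9e-05). Cxcl5, Mmp3, Mmp13 and Il1a rose in both. Cxcl5 had 1.06 and 1.23, with a difference of -0.17 (SE 0.17, adjusted p = 0.463), and Mmp3 1.20 and 1.65, with a difference of -0.45 (SE 0.20, adjusted p = 0.0721). Mmp13 had 0.999 and 1.57 and Il1a 0.68 and 0.69, and none of these 4 differences was called. The Mmp3 and Mmp13 differences were called without adherent 48 h replicate 5 and without DMSO-sEV 72 h replicate 4 or 5. That of Srebf2 was lost with length and GC offsets and with DMSO-sEV replicates 4 and 5 alone. The DMSO-sEV libraries were not alike. At 72 h the 20 genes with the most counts held 9.99 to 10.97% of counts in replicates 1 to 3, and 8.29 and 8.44% in replicates 4 and 5. At 48 h the shares were 8.17 to 9.07%, and 7.72 and 7.6%. The DMSO-sEV medians of gene lists, and the counts of list members that differ, are over all 5 replicates unless another set is named. With DMSO-sEV replicates 1 to 3 alone the counts were 3027 and 3558. With replicates 4 and 5 alone they were 1626 and 1435, so that 53.12% of the calls were higher, against 42.58% with all 5 replicates.

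**Figure D5:**
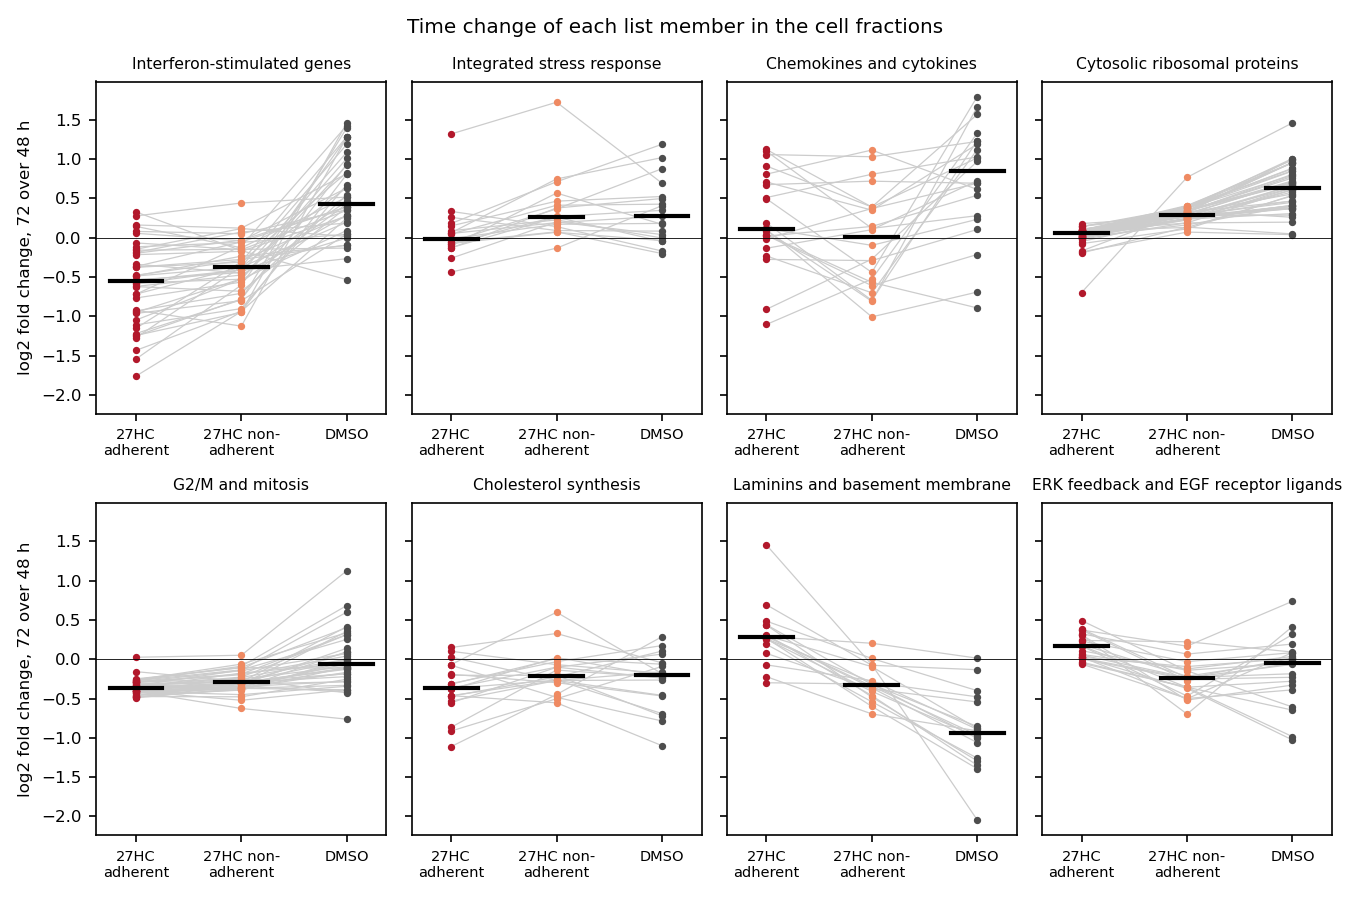
Log2 fold change of 72 over 48 h (y axis) of every tested member of 8 gene lists in adherent 27HC-sEV, non-adherent 27HC-sEV and DMSO-sEV cells (columns of each panel); grey lines join a gene, and black bars are medians. The interferon-stimulated median is -0.55 in adherent 27HC-sEV cells, -0.37 in non-adherent 27HC-sEV cells and 0.43 in DMSO-sEV cells, and the laminin median is 0.29, -0.33 and -0.94 in the same order.

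Against the non-adherent fraction of the same vesicle type, the time change was higher in 444 genes (3.41%) and lower in 154 (1.18%). The lower count was 98 without non-adherent 48 h replicate 3 or 72 h replicate 2, and without non-adherent 72 h replicate 1 the counts were 258 and 92. Of 43 interferon-stimulated genes 2 had a lower and 1 a higher change than in non-adherent cells, and the medians were -0.55 in adherent and -0.37 in non-adherent cells. The 2 lower ones were Rsad2 and Isg15, whose calls were lost when single libraries of either fraction were left out. The medians of the 41 G2/M genes were -0.36 in adherent and -0.29 in non-adherent cells. Csf3 changed by 1.103 in adherent and 0.12 in non-adherent cells, a difference of 0.98 (SE 0.16, adjusted p = 0.000372), and Serpine2 by 1.02 and 0.03, a difference of 0.99 (SE 0.19, adjusted p = 0.00186). Lcn2 rose in both, by 2.30 and 0.96, with a difference of 1.34 (SE 0.25, adjusted p = 0.00167). Of 23 genes of ERK feedback and EGF receptor ligands 12 had a higher change in adherent cells and none a lower one, with medians of 0.17 and -0.24. Errfi1, an inhibitor of the EGF receptor, had 0.03 and -0.50. The 12 were 7 without 72 h replicate 1 of the adherent cells and without non-adherent 48 h replicate 1 or 3 or 72 h replicate 1 or 2. Stress genes had lower changes in adherent cells, with 7 of 19 genes of the integrated stress response and 11 of 17 of amino acid synthesis called. Ddit3 had 0.06 and 0.75, a difference of -0.68 (SE 0.15, adjusted p = 0.00737), and Asns -0.20 and 0.40. Of 18 laminin and basement membrane genes 9 had a higher change in adherent cells (4 without non-adherent 72 h replicate 1). Of the sterol enzymes, Fdps had -0.87 and -0.14, a difference of -0.73 (SE 0.10, adjusted p = 5.21e-05), and 5 of the 20 had a lower change in adherent cells. Prl2c3, a prolactin-family hormone whose reads may be split with its near-identical copies, rose by 0.58 and 1.62, a difference of -1.05 (SE 0.20, adjusted p = 0.00155). Cxcl5 rose by 1.06 and 1.03, with no called difference.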

How the data were processed

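RNA of 4T1 cells was sequenced in 30 labelled samples, and the count table holds 29 libraries in 6 groups. The authors deposited estimated counts per gene, of which 40.79% were not whole numbers, and a second table of log2 CPM. Per the submitters' processing notes, Salmon 1.10.0 was used, with GRCm39 and mm39 given as builds. How transcripts were summed to genes, or strand handled, is not given in the sources used here. Without strand, reads of overlapping or antisense genes cannot be told apart. Columns in which the authors mark genes as kept or as differing were not used. The table lists 0 mitochondrial genes.

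Estimated counts were rounded. Genes were kept by filterByExpr (minimum count 10, minimum total 15), which left 13008 of 39253. All 6 groups entered one edgeR 4.0.16 quasi-likelihood fit (R 4.3.3, TMM factors, robust), with Benjamini-Hochberg adjustment over the 13008 genes and a threshold of 0.05, two-sided. Contrasts were 72 minus 48 h in adherent 27HC-sEV cells, and that difference minus the same in DMSO-sEV or non-adherent cells, which share the adherent 27HC-sEV libraries. CPM values use the TMM library sizes, and their precision is limited by 5 libraries a group and totals of 19.3 to 28.5 M. Alternatives (other scaling, filters, offsets for length and GC, a replicate block, DESeq2 1.42.0, limma 3.58.1, leaving out libraries) are described at the end. In counts simulated on these 13008 genes and libraries for 72 against 48 h, the fit recovered 85% of 100 changes of 1.5-fold and 100% of 100 changes of 2-fold, with 13 false calls. The changed genes were drawn only from those with higher mean counts, so the recovery does not cover genes with few counts. Simulated replicates of a group differed only by random spread and library size.

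The genes named were the 12 largest increases and the 12 largest decreases among called genes without overlap of libraries whose mean log2 CPM reached 3, the members of each list with the smallest p, a fixed set, and the top genes of each difference; Isg15, Rsad2, Irf7 and Il11 were added after their values were seen. The comparison, the lists and the motifs were chosen with earlier results of these data known. Some list members are not reported here by name. Lists are described by counts and medians, with no list test. Numbers shared by replicates of the 2 times did not pair them as a set (correlations of same-numbered deviations 0.69, 0.34, 0.33, -0.36 and -0.08). Only the libraries numbered 1 correlated best with each other. No 2 libraries held identical values.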

Additional observations from a re-analysis of the deposited data

Results flagged for a closer look

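In 212 groups of 5 libraries (106 named genes at 72 and at 48 h), 12 libraries stood apart from the other 4, which chance gives in about 1 group in 20. At 72 h these were Tgfbr3 in replicate 1, at 21.6 CPM against 16.2 to 17.7 CPM in the others, and Cldn1 in replicate 2, at 2.13 CPM against 2.79 to 3.04 CPM. At 48 h replicate 5 was high for Stard4 (48.5 CPM, others 40.3 to 42.7) and the cyclin D1 gene Ccnd1 (1004 CPM, others 824 to 861) and low for Ctsl (1636 CPM, others 2019 to 2151). Replicate 3 at 48 h was low for Rrm2 (141 CPM, others 145 to 146), Cldn1 (0.997 CPM, others 1.32 to 1.43), Ccn2 (106 CPM, others 119 to 124) and Errfi1 (263 CPM, others 275 to 278). Replicate 2 at 48 h was low for Ptprs (203 CPM, others 226 to 235) and high for Fth1 (1694 CPM, others 1571 to 1597), and replicate 1 was high for Snai1 (9.15 CPM, others 6.85 to 7.42).

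The time change in adherent 27HC-sEV cells minus that in DMSO-sEV cells, on the log2 scale, passed edgeR's test for 75 of the 106 named genes. It was negative for the interferon-stimulated genes Rsad2 (-2.82), Ifit1 (-2.62), Isg15 (-2.44), Oasl1 (-2.19), Ddx60 (-1.97), Gbp3 (-1.69), Oasl2 (-1.48), Irf7 (-1.36), Apol9b (-1.33), Ifih1 (-1.20), Gbp2 (-1.01) and Psmb10 (-0.63), and for the chemokines Cxcl10 (-2.43), Ccl5 (-1.88) and Cxcl1 (-0.66). Unlike the other 2 chemokines, Cxcl1 rose in adherent 27HC-sEV cells (log2 change 0.91). Its difference was not called with length and GC offsets or with DMSO-sEV replicates 4 and 5 alone. For the MHC transactivator Nlrc5 the difference was 0.42. Among sterol and lipid genes it was negative for Idi1 (-1.40), Insig1 (-1.24), Cyp51 (-0.82), Stard4 (-0.70), Fdps (-0.63), Acat2 (-0.62) and Hmgcs1 (-0.27) and positive for Abcg1 (2.02), Scd2 (0.45), Scd1 (0.42) and Srebf2 (0.40). Among stress genes it was negative for Atf3 (-1.01), Ddit3 (-0.96), Ddit4 (-0.84), Trib3 (-0.63) and Asns (-0.33). Cell cycle genes were negative for Ccnb1 (-0.55), Rbl1 (-0.50), Kif11 (-0.45), Kif20a (-0.37), Rrm1 (-0.30) and Rrm2 (-0.16) and positive for Mki67 (0.35). The difference was negative for the epithelial genes Serpinb5 (-0.73), Sfn (-0.49), Krt14 (-0.38), Krt7 (-0.31) and Krt18 (-0.25). It was also negative for Birc3 (-0.34) and Nfkbie (-0.29) of the NF-kappa B list. The epithelial Cldn1 (1.77) and Cdh1 (0.95) and the mesenchymal Vim (0.18) were positive. Matrix, adhesion and receptor genes were positive, namely Lrp1 (1.85), Tgfbr3 (1.82), Fgfr1 (1.68), Col5a1 (1.60), Fn1 (1.35), Lama5 (1.30), Serpine2 (1.26), Ccn1 (1.06), Ptprs (1.03), Adamts7 (0.93), Lamb2 (0.89), Ccn2 (0.59), Cd44 (0.53) and Amigo2 (0.70). So were the secreted and metabolic genes Lcn2 (2.17), Dio2 (1.19), Stc1 (0.89), Csf3 (0.82), Ptgs2 (0.71), Ptges (0.53), Vegfa (0.37), Xdh (0.46), Smox (0.33) and Fth1 (0.31) and the remaining Nup210 (1.35) and Fosb (0.61).

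The time change in adherent minus that in non-adherent 27HC-sEV cells passed for 41 of the 106. It was positive for the secreted and receptor genes Lcn2 (1.34), Fgfr1 (1.12), Lrp1 (1.12), Serpine2 (0.99), Csf3 (0.98), Stc1 (0.98), Tgfbr3 (0.89), Il11 (0.73), Gpnmb (0.73) and Dio2 (0.48), for the exporters Abca1 (1.85) and Abcg1 (0.92), for the matrix and adhesion genes Col5a1 (0.93), Lama5 (0.76), Lamb2 (0.47), Amigo2 (0.64), Cd44 (0.63), Ptprs (0.33) and Vim (0.22) and for Ptges (1.05), Nfkbiz (0.61), Errfi1 (0.53), Smox (0.44), Cdkn1a (0.39) and Ccnd1 (0.37). It was negative for the interferon and chemokine genes Rsad2 (-0.94), Isg15 (-0.85), Ccl5 (-0.64) and Apol9b (-0.43), the sterol enzymes Fdps (-0.73), Idi1 (-0.66), Acat2 (-0.45) and Hmgcs1 (-0.26), the stress genes Ddit3 (-0.68), Asns (-0.60), Atf3 (-0.53), Trib3 (-0.51) and Ddit4 (-0.30), the epithelial genes Krt14 (-0.72) and Serpinb5 (-0.66) and the prolactin-family gene Prl2c3 (-1.05). Some of these calls did not hold in every alternative: 18 of the 75 and 15 of the 41 were lost in at least 1, most often those of Rsad2, Gpnmb, Isg15, Abcg1 and Fgfr1 against non-adherent cells and of Krt18 and Mki67 against DMSO-sEV cells.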

How the results depend on the processing

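Calls of 72 against 48 h did not change for 99 of the 106 named genes, and no called direction reversed, though the uncalled Cdh1, Ccn2, Myc and Nup210, all near 0, crossed 0 in at least 1 alternative; 4 lost their call in at least 1 alternative (Abca1, Abcg1, Asns and Zeb1) and 3 gained one (Atf3, Epcam and Snai1). Leaving out 1 library gave 637 to 916 higher and 642 to 765 lower genes, against 856 and 851. Without a filter beyond 1 count 516 were lower. With length and GC offsets 1388 were lower, and 1545 of the 1707 calls were shared. With the DMSO-sEV libraries left out of the fit, an alternative chosen after seeing the data, 1484 were higher. The replicate block gave 1082 higher and 1043 lower, and with the offsets as well 1335 and 1614. The numbers do not pair the libraries as a set, and only replicate 1 correlated best with its own number from both times. For the difference from DMSO-sEV cells (2068 and 2789), leaving out 1 library gave 1782 to 2426 and 2391 to 3320, and DMSO-sEV replicates 4 and 5 alone gave 1626 higher and 1435 lower, so that 53.12% of the calls were higher, against 42.58% in the fit reported. Of the 4857 calls of this difference, only 2919 were shared with length and GC offsets, and 2773 with DMSO-sEV replicates 4 and 5 alone. For the difference from non-adherent cells (444 and 154), leaving out 1 library gave 258 to 627 and 92 to 226. That difference gave 82 lower without a filter, 709 higher with the block, 857 and 356 with only the groups compared, 360 lower with the offsets, 823 and 564 with offsets and block, and 281 lower with DESeq2. Of named genes, 18 lost and 17 gained a call against DMSO-sEV cells, and 15 lost and 16 gained one against non-adherent cells. Of differences called in the fit reported or in the alternative, those that turned sign were from DMSO-sEV cells: Rrm2 at 0.12 with offsets and 0.12 with offsets and block (-0.16 in the fit reported), Il1a at 0.42 (-0.02) and Srebf2 at -0.0007 (0.40), both with offsets and block; the cause was not tested. Uncalled differences, such as those of Cxcl5, Ccl2 and Cck from DMSO-sEV cells and of Cxcl5, Il1a and Srebf2 from non-adherent cells, also crossed 0 in some alternatives. Genes near or under 1 CPM, such as Abca1, Zeb1 and S100a8, carry few counts.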

Other observations

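Some genes with a small p stood outside the gene groups described above. Cck, the gut and brain hormone cholecystokinin, averaged 8.82 ± 1.59 CPM at 72 h and 2.19 ± 0.198 CPM at 48 h (SD, n = 5 each), a log2 change of 2.01 (SE 0.18, edgeR adjusted p = 9.98e-09). Xdh, xanthine oxidoreductase, averaged 74.8 ± 3.33 CPM at 72 h and 41.3 ± 2.71 CPM at 48 h, a log2 change of 0.86 (SE 0.07, edgeR adjusted p = 8.78e-10). Amigo2, an adhesion protein of the immunoglobulin and leucine-rich repeat family, averaged 28.4 ± 1.91 CPM at 72 h and 16.2 ± 0.761 CPM at 48 h, and the spermine oxidase Smox 127 ± 3.72 CPM at 72 h and 89.6 ± 4.32 CPM at 48 h. None of these groups of libraries overlapped.

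Of 31 proteasome genes 1 fell and none rose, with all 31 log2 fold changes negative and a median of -0.09. Of 43 genes of oxidative phosphorylation 2 fell (median -0.08). Their time changes in DMSO-sEV cells had medians of 0.34 and 0.34. For 23 and 24 of them the time change was called lower in adherent 27HC-sEV than in DMSO-sEV cells, as for 21.4% of all genes. These counts rest on all 5 DMSO-sEV replicates, which were not alike. The 50 cytosolic ribosomal protein genes had a median of 0.05 in adherent 27HC-sEV cells and 0.64 in DMSO-sEV cells, and 35 had a lower time change by that difference. With DMSO-sEV replicates 4 and 5 alone 5 were called, and with replicates 1 to 3 alone 46. Of 14 ABC efflux transporter genes 4 rose (median 0.16), of 33 genes of the TGF-beta and BMP pathway 3 rose (median 0.06), of 25 Wnt pathway genes 3 rose (median 0.07) and of 14 Notch pathway genes 2 rose (median 0.05), and none fell in these 4 groups; of all genes tested 6.58% rose and 6.54% fell. Against non-adherent cells 9 of the 33 TGF-beta and BMP genes and 9 of 35 integrin and focal adhesion genes had a higher time change in adherent cells, as did 3.41% of all genes. Of 14 mesenchymal genes 5 rose and 1 fell, and of 17 genes of the senescence-associated secretory list 8 rose and 2 fell (median 0.31); that list shares members with the chemokine and protease lists.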
